A study of Mus musculus with 22 samples.

Results

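Very long genes are common among those that neurons use, and 43 of them that encode neither adhesion molecules of the large neuronal families nor ion channels themselves were examined here across 3 culture comparisons. They were chosen by name as long genes of mixed function, with earlier results of these data known. Shares of calls among them are therefore descriptions and no independent support. Their annotated spans in GRCm38.p6 run from 232 kb to 2390 kb, with a median of 725 kb. The median over the 10751 genes tested that have a length is 25 kb. Of the 43, 41 had at least 1 probe set with a single gene symbol among the 18194 genes of the array, through 139 probe sets in all. Magi2 and Immp2l were not analysed here. Of the 41, 34 passed a filter on mean signal over all 22 arrays and were tested among 10772 genes, and Csmd1, Fhit, Wwox, Lrp1b, Fstl4, Agbl4 and Dpp10 were too dim to be tested.

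The RNA came from granule cells of postnatal day 7 pups, measured on 22 Affymetrix mouse whole-genome arrays. In the first comparison, 4 arrays of Chd7 mutant neurons were set against 4 arrays of neurons labelled wild type, and the study describes these cells as Atoh1-Cre::Chd7 f/f and Chd7 f/f, so that Cre acts in the granule cell lineage and the control carries the floxed alleles without it. In the second, 4 arrays of neurons given ICRF-193 at 10 µM for 12 h were set against 4 arrays of neurons given the solvent DMSO, and in the third, 3 arrays of cells cultured with Smo2 were set against 3 arrays of cells cultured without it. The labels do not say what Smo2 is, while the study describes a Smoothened agonist for such a culture. All animals are labelled with a C57BL/6 type strain, the sex of the pups was not told apart, and the labels call the samples biological replicates without saying how many pups each holds, so p-values measure the spread between these samples. No array shared a control between comparisons.

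Array medians before normalization lay between 6.33 and 6.81 (log2), and markers of granule cells averaged 12.02 to 12.42 on the mutant arrays and 12.20 to 12.40 on their control arrays, so the labelled cell type was present throughout. Chd7 itself, the chromatin remodeller deleted in the first comparison, was read by a pair of probe sets. One fell by 2.03 (log2) in the mutant (adjusted p = 0.00342 in a limma fit of 22551 probe sets) and the brighter one changed by -0.25 (adjusted p = 0.299). Both fell with ICRF-193, the brighter by 1.35 ± 0.14 (limma adjusted p = 0.000581). Top2b, the topoisomerase II of neurons that no longer divide, changed by -0.02 in the mutant (95% interval -0.19 to 0.14) and by 0.16 with ICRF-193 (95% interval -0.05 to 0.38), and Top2a, its counterpart in cycling cells, rose by 3.09 ± 0.05 with Smo2 (limma adjusted p = 1.13e-06). In the mutant Top2a changed by 0.68 (0.66 within replicates 1 and 2 and 0.70 within replicates 3 and 4), with a limma adjusted p of 0.279, or 0.00338 with replicate numbers blocked and 0.00042 with these 2 sets of replicates blocked. With ICRF-193 it changed by 0.26 (limma adjusted p of 0.77, or 0.0465 with the sets blocked). The part of dividing cells in the members' changes was not tested.

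Transcription of a gene of such length takes hours and winds the DNA ahead of and behind the polymerase. Type II topoisomerases remove this strain by passing one duplex through another, and ICRF-193 holds them as a closed clamp on DNA so that they no longer turn over. Chd7 is an ATP-dependent remodeller of the CHD family that moves nucleosomes, and mutations of human CHD7 cause CHARGE syndrome. Long genes are common among those that neurons use for synapses, axons and excitability, and granule cells turn on many of them as they leave the cell cycle, a step that hedgehog signalling through Smoothened holds back.

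In each of the 3 comparisons more giant genes were lower than higher in the treated or mutant cells. In the Chd7 mutant 12 of the 34 tested members were lower and 1 was higher, against 3.82% and 5.07% of all genes tested. With ICRF-193, 22 were lower and 0 higher, against 3.46% and 3.14% of all genes. With Smo2, 28 were lower and 2 higher, in a comparison in which 39% of all genes were lower and 29.7% higher. Over all 41 members with a probe set, tested or not, the median change was -0.23 in the mutant, -0.88 with ICRF-193 and -1.04 with Smo2 (log2), beside 0.00, 0.00 and -0.03 over the 18194 genes. All changes below are log2 differences of group means ± SE, higher or lower means a limma adjusted p under 0.05 over all genes tested, and signals are log2 intensities after quantile normalization. The 0 members higher with ICRF-193 were likewise 0 before adjustment at 0.05 in limma, against 1094 of all 10772 genes, and 0 by the methods' t-test. Centring the arrays on their medians in place of quantile normalization changed the share of lower calls among all calls. It moved to 58.5% in the mutant comparison, against 43% as given here, and to 44.3% in the Smo2 comparison, against 56.8%. With Smo2 the median change over all genes was then 0.10. The members lower were 12 in the mutant and 25 with Smo2, against 551 and 3218 of the 10775 genes tested in that run.

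**Figure D1:**
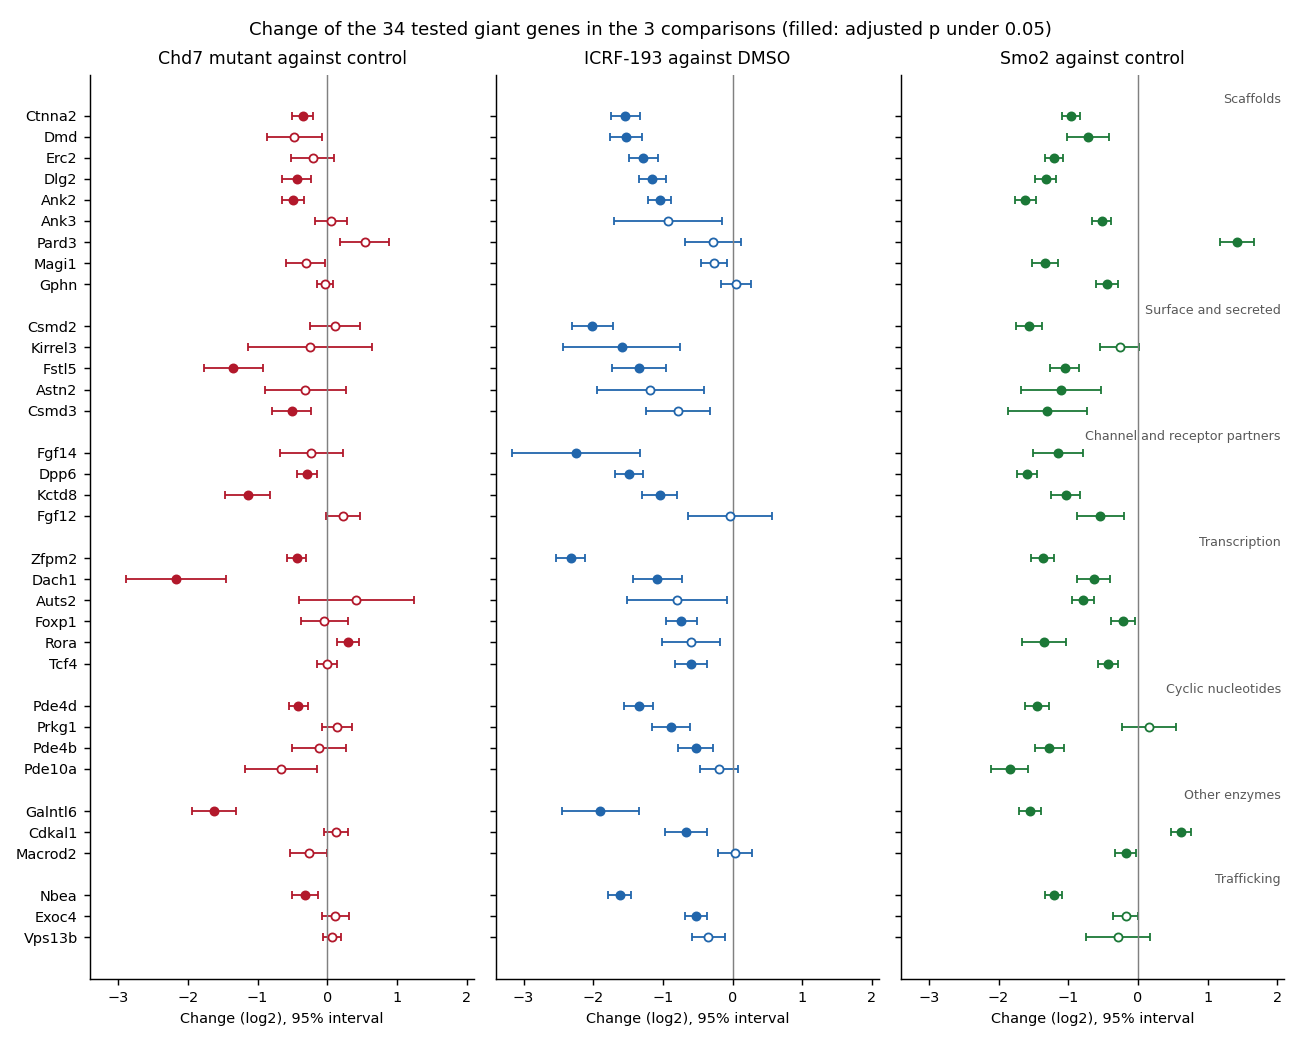
Change (log2, x axis) of each of the 34 tested giant genes (rows, grouped by role) in the Chd7 mutant against control, with ICRF-193 against DMSO and with Smo2 against cells without it. Points are differences of group means, bars their 95% intervals, filled points an adjusted p under 0.05. In the middle panel 22 points are filled and all lie left of 0, whereas Gphn, Fgf12 and Macrod2 sit at 0.

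The comparison of Chd7 mutant with control neurons asks which transcripts depend on this remodeller. Dach1, Galntl6, Fstl5 and Kctd8 fell at least 2-fold in the mutant. Dach1, a transcription cofactor related to the fly dachshund protein, read 8.27, 8.15, 9.27 and 9.29 on the mutant arrays, against 10.81, 10.51, 11.39 and 10.98 on the control arrays. It fell by 2.18 ± 0.31, a 4.52-fold decrease (limma adjusted p = 0.00529). The groups were more than 1 log2 unit apart, and replicates 1 and 2 read below replicates 3 and 4 in the mutant. Galntl6, of the enzyme family that starts mucin-type O-glycosylation, read 7.35, 7.82, 7.97 and 7.81 on the mutant arrays, against 9.26, 9.26, 9.37 and 9.58 on the control arrays. It fell by 1.63 ± 0.14, a 3.09-fold decrease (limma adjusted p = 0.000781), with both groups tight and far apart.

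Fstl5, a secreted protein of the follistatin-like family, read 8.45, 8.59, 8.89 and 9.00 on the mutant arrays, against 9.68, 9.94, 10.37 and 10.33 on the control arrays. It fell by 1.35 ± 0.18, a 2.54-fold decrease (limma adjusted p = 0.00437). Every mutant array was below every control array. Kctd8, an auxiliary subunit of GABA-B receptors, read 8.81, 8.89, 8.76 and 8.38 on the mutant arrays, against 10.08, 9.91, 9.83 and 9.59 on the control arrays. It fell by 1.14 ± 0.14, a 2.21-fold decrease (limma adjusted p = 0.00255). For each of these 4 genes a second probe set above the signal filter also fell, with changes of -1.84 for Dach1, -1.63 for Galntl6, -1.39 for Fstl5 and -1.30 for Kctd8. At 232 kb and 383 kb, Kctd8 and Dach1 are among the shortest of the members.

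The promoters of the 3 genes that fell by more than 1 (log2) both in the mutant and with ICRF-193 and have a single annotated start are shown next, 250 bases before to 50 after the RefSeq start in GRCm38.p6, beside that of Gphn, a bright giant gene that was called in neither comparison. Capitals mark the letters GGGCGG (the GC box), TATAAA (the TATA box) and CCAAT, on either strand. The windows of Dach1 and Kctd8 hold none of these, that of Galntl6 holds 1 TATAAA and 2 CCAAT matches, and that of Gphn holds 1 GGGCGG match. Among 32851 such windows of the mouse annotation, 35.7% hold GGGCGG, 13.6% TATAAA and 37.4% CCAAT.
Dach1 (chr14:98169716-98170015, minus strand): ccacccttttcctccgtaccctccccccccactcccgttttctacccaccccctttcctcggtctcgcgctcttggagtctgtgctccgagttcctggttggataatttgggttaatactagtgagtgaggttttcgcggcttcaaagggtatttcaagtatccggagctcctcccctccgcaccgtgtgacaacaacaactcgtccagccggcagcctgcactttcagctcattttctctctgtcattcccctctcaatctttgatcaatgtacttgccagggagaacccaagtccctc
Galntl6 (chr8:58911578-58911877, minus strand): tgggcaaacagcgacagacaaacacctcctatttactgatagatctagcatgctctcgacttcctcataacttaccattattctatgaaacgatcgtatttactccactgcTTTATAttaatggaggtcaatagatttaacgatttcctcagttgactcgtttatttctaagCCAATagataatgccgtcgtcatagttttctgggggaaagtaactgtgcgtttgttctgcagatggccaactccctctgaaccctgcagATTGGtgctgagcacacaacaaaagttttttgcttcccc
Kctd8 (chr5:69341660-69341959, minus strand): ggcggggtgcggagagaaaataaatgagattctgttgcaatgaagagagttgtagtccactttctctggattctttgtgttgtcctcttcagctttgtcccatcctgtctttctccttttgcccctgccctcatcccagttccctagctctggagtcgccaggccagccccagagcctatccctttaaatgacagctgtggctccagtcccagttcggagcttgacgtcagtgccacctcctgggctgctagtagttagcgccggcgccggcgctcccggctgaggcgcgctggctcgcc
Gphn (chr12:78226405-78226704, plus strand): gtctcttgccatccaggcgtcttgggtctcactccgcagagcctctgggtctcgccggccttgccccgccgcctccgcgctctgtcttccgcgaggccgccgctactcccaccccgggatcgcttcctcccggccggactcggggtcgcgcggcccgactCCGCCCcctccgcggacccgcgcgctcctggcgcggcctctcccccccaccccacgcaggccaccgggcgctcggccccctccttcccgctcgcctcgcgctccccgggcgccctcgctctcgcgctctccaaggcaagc

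GC content was 54% in the Dach1 window, 41.7% for Galntl6, 57.7% for Kctd8 and 77% for Gphn, with 13, 9, 14 and 42 CpG dinucleotides in that order, beside a median of 7 CpG over all windows (quartiles 3 and 20). Of the members, 30 matched 53 such windows, of which 28 held GGGCGG, 7 TATAAA and 23 CCAAT. These are letter matches, not sites of a factor.

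The other falls in the mutant were smaller. Csmd3, a very large membrane protein with CUB and sushi domains, read 7.40, 7.35, 6.91 and 7.03 on the mutant arrays, against 7.74, 7.54, 7.67 and 7.80 on the control arrays, and fell by 0.51 ± 0.12 (limma adjusted p = 0.0363). It did not pass when replicate numbers were blocked (limma adjusted p = 0.0502), nor without any single control array or mutant replicate 3 or 4 (adjusted p from 0.057 to 0.095). Ank2, ankyrin-B, which ties membrane proteins to the spectrin skeleton, read 13.09, 13.04, 12.85 and 13.03 on the mutant arrays, against 13.43, 13.46, 13.51 and 13.59 on the control arrays. It fell by 0.49 ± 0.07 (limma adjusted p = 0.00507), and no array of either group crossed into the other. Dlg2, the synaptic scaffold PSD-93, read 11.68, 11.64, 11.92 and 11.80 on the mutant arrays, against 12.08, 12.10, 12.27 and 12.34 on the control arrays. It fell by 0.44 ± 0.09 (limma adjusted p = 0.0221), a call that was lost without control replicate 3 or 4 or mutant replicate 1 or 2 (adjusted p from 0.0523 to 0.0627).

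Zfpm2, or FOG2, a zinc finger cofactor of GATA factors, read 13.03, 12.93, 13.09 and 13.10 on the mutant arrays, against 13.42, 13.53, 13.48 and 13.47 on the control arrays. It fell by 0.44 ± 0.06 (limma adjusted p = 0.00424), a small change beside a very narrow spread. Pde4d, which hydrolyses cAMP, read 10.98, 10.87, 10.80 and 10.97 on the mutant arrays, against 11.34, 11.36, 11.30 and 11.29 on the control arrays, and fell by 0.42 ± 0.06 (limma adjusted p = 0.00547). Ctnna2, the neuronal alpha-catenin that links cadherins to actin, read 10.61, 10.70, 10.50 and 10.48 on the mutant arrays, against 10.98, 10.88, 10.93 and 10.89 on the control arrays. It fell by 0.35 ± 0.07 (limma adjusted p = 0.0164), though not without control replicate 1 (adjusted p = 0.0533). Neither gene had a mutant array above a control array.

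Nbea, or neurobeachin, which takes part in the membrane traffic of receptors, read 13.29, 13.19, 13.40 and 13.47 on the mutant arrays, against 13.58, 13.59, 13.76 and 13.70 on the control arrays. It fell by 0.32 ± 0.08 (limma adjusted p = 0.0419), and the call was lost without any array but mutant replicate 4 (adjusted p from 0.0679 to 0.105). Its only probe set did not pass in the fit of probe sets (limma adjusted p = 0.0555). Dpp6, an auxiliary subunit of Kv4 potassium channels, read 11.10, 11.22, 11.10 and 11.18 on the mutant arrays, against 11.41, 11.38, 11.43 and 11.55 on the control arrays. It fell by 0.29 ± 0.06 (limma adjusted p = 0.0248), and lost its call without control replicate 1, 3 or 4 or mutant replicate 1, 3 or 4 (adjusted p from 0.0516 to 0.0633). Only some bright probe sets passed in that fit for Dpp6 (1 of 2), Pde4d (1 of 2), Ank2 (2 of 3) and Dlg2 (2 of 3). Rora, an orphan nuclear receptor best known from Purkinje cells, was the 1 member that rose. It read 9.46, 9.62, 9.57 and 9.66 on the mutant arrays, against 9.31, 9.37, 9.17 and 9.28 on the control arrays, a rise of 0.29 ± 0.07 (limma adjusted p = 0.0375), which was lost without any array but mutant replicate 1 (adjusted p from 0.0538 to 0.0912), and in the fit of probe sets 0 of its 5 bright probe sets passed.

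Among the members that did not pass in the mutant, the widest intervals belonged to Kirrel3, Auts2, Astn2 and Pde10a. Kirrel3, a synaptic immunoglobulin-type protein, changed by -0.25 (95% interval -1.14 to 0.65), and Pde10a, a phosphodiesterase of cAMP and cGMP, by -0.67 (95% interval -1.19 to -0.15). Narrow intervals around 0 were found for Gphn, gephyrin of inhibitory synapses, at -0.04 (95% interval -0.15 to 0.08), and for Tcf4, a basic helix-loop-helix factor, at -0.00 (95% interval -0.15 to 0.14). Pard3, the polarity protein Par3, was higher on all mutant arrays by 0.53 without passing (limma adjusted p = 0.067), and passed when replicate numbers were blocked (adjusted p = 0.0382). Apart from Auts2 at 0.42, the other members that did not pass changed by between -0.47 for Dmd and 0.22 for Fgf12. In the fit of probe sets another bright probe set passed for 2 of these members: 1 of Fgf12 changed by -0.62 (limma adjusted p = 0.0163) and 1 of Macrod2 by -0.66 (adjusted p = 0.0419). The second bright probe set of Pard3 changed by only 0.01 (limma adjusted p = 0.992). Those of Magi1, given by 1 at -0.31, ranged from -0.34 to 0.21.

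With the 2 sets of replicates as a block 17 members were lower and 2 higher, since Macrod2, Fgf14, Erc2, Pde10a and Dmd then passed as lower (limma adjusted p of 0.0175, 0.0361, 0.0399, 0.046 and 0.0494) and Pard3 as higher (0.00913). The share of all genes called in that fit is not given here. As no called member had overlapping groups, the direction within replicates 1 and 2 and within replicates 3 and 4 was bound to be the same. Replicates resembled each other within these sets. With each set averaged to 1 sample limma called 0 members and 0 genes. Before adjustment, at 0.05, 12 members were lower and 1 higher, against 468 and 653 of all 10772 genes. Markers of other cells differed between the same arrays. Oligodendrocyte markers averaged 8.71 to 9.49 on mutant and 7.55 to 8.68 on control arrays (7 measured, 1 of 6 tested higher), astrocyte markers 9.68 to 11.46 on mutant and 9.23 to 10.46 on control arrays (8 measured, 1 higher), and fibroblast and pericyte markers 8.84 to 9.88 on mutant and 8.23 to 9.10 on control arrays (7 measured, 2 of 6 tested higher), with no marker at the floor on every array. Microglial markers averaged 5.48 to 8.06 on mutant and 6.71 to 8.48 on control arrays and GABAergic markers 8.43 to 9.32 on mutant and 8.96 to 9.12 on control arrays, with none called, and 1 of 3 Purkinje cell markers tested was lower. The 3 Y-linked genes measured were all lower in the mutant, at 4.00 to 6.95 on mutant and 8.38 to 9.03 on control arrays. The part of these differences in the members' changes was not tested, and in such bulk samples fewer cells of a type and less RNA per cell cannot be told apart.

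The comparison of ICRF-193 with DMSO asks which transcripts depend on type II topoisomerase activity. It gave the deepest falls among the members. Zfpm2 read 10.67, 10.94, 10.64 and 10.86 on the ICRF-193 arrays, against 13.19, 13.10, 12.97 and 13.15 on the DMSO arrays. It fell by 2.33 ± 0.09, a 5.01-fold decrease (limma adjusted p = 7.05e-06), and its second probe set changed by -2.39. Fgf14, an intracellular fibroblast growth factor homologue that binds sodium channels, read 6.83, 6.59, 5.34 and 6.04 on the ICRF-193 arrays, against 8.92, 9.12, 7.89 and 7.82 on the DMSO arrays. It fell by 2.24 ± 0.40 (limma adjusted p = 0.0124), with replicates 3 and 4 below replicates 1 and 2 in both groups, while 2 other bright probe sets of the gene did not pass and changed by as little as -0.21.

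Csmd2, a relative of Csmd3, read 7.73, 7.71, 7.33 and 7.40 on the ICRF-193 arrays, against 9.56, 9.72, 9.63 and 9.29 on the DMSO arrays. It fell by 2.01 ± 0.13, a 4.04-fold decrease (limma adjusted p = 6.21e-05), whereas in the mutant it changed by 0.12 (95% interval -0.25 to 0.48). Galntl6 read 6.69, 7.26, 6.81 and 6.44 on the ICRF-193 arrays, against 9.11, 8.90, 8.70 and 8.08 on the DMSO arrays. It fell by 1.90 ± 0.24 (limma adjusted p = 0.00213), the only member beside Fstl5, Kctd8 and Dach1 to lose more than 1 log2 unit in both comparisons. Nbea read 11.73, 11.87, 11.83 and 11.95 on the ICRF-193 arrays, against 13.49, 13.55, 13.41 and 13.42 on the DMSO arrays. It fell by 1.62 ± 0.07 (limma adjusted p = 1.23e-05), and the groups stood far outside their spread.

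Kirrel3 read 5.43, 4.31, 5.87 and 5.44 on the ICRF-193 arrays, against 7.50, 7.16, 6.38 and 6.39 on the DMSO arrays. It fell by 1.59 ± 0.37 (limma adjusted p = 0.0389), with wide scatter, a change of -2.46 within replicates 1 and 2 and -0.73 within replicates 3 and 4. It did not pass with the replicate block (limma adjusted p = 0.0687) or without DMSO replicate 1, 2 or 3 or ICRF-193 replicate 1, 2 or 4 (adjusted p from 0.051 to 0.0965). In the fit of probe sets the one read here did not pass either (limma adjusted p = 0.0512). The other probe sets of Kirrel3, both dim, changed by 1.32 and 0.72. Ctnna2 read 9.75, 9.65, 9.61 and 9.85 on the ICRF-193 arrays, against 11.24, 11.45, 11.16 and 11.17 on the DMSO arrays, and fell by 1.54 ± 0.09 (limma adjusted p = 3.91e-05). Dpp6 read 9.62, 9.73, 9.71 and 9.55 on the ICRF-193 arrays, against 11.06, 11.26, 11.01 and 11.23 on the DMSO arrays, and fell by 1.49 ± 0.09 (limma adjusted p = 3.91e-05). Both showed tight groups of 4 arrays, more than 1 log2 unit apart.

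Pde4d read 9.82, 9.76, 9.70 and 9.60 on the ICRF-193 arrays, against 11.26, 10.99, 10.95 and 11.08 on the DMSO arrays. It fell by 1.35 ± 0.09 (limma adjusted p = 6.77e-05), while its dimmer probe set changed by 0.29 and did not pass. Fstl5 read 8.23, 7.95, 7.99 and 7.51 on the ICRF-193 arrays, against 9.51, 9.42, 9.12 and 9.01 on the DMSO arrays. It fell by 1.34 ± 0.17 (limma adjusted p = 0.00208), nearly the change it had in the mutant. Dlg2 read 10.64, 10.74, 10.53 and 10.64 on the ICRF-193 arrays, against 11.85, 11.92, 11.71 and 11.67 on the DMSO arrays, and fell by 1.15 ± 0.08 (limma adjusted p = 9.57e-05). Its groups were tight and lay far apart.

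Dach1 read 10.23, 10.11, 10.30 and 10.66 on the ICRF-193 arrays, against 11.32, 11.10, 11.50 and 11.70 on the DMSO arrays. It fell by 1.08 ± 0.16 (limma adjusted p = 0.00419), less than its change of -2.18 in the mutant. Ank2 read 12.08, 12.08, 12.18 and 12.26 on the ICRF-193 arrays, against 13.12, 13.25, 13.26 and 13.18 on the DMSO arrays, and fell by 1.05 ± 0.07 (limma adjusted p = 7.36e-05). Kctd8 read 8.54, 8.69, 8.53 and 8.33 on the ICRF-193 arrays, against 9.82, 9.53, 9.42 and 9.51 on the DMSO arrays, and fell by 1.05 ± 0.11 (limma adjusted p = 0.00075). In each case the highest ICRF-193 array stayed below the lowest DMSO array.

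The other members lower with ICRF-193 were Dmd, dystrophin, the longest of all at 2390 kb, at -1.53 (limma adjusted p = 6.77e-05), Erc2 of the presynaptic active zone at -1.28, the cGMP-dependent kinase Prkg1 at -0.88, the forkhead factor Foxp1 at -0.74, the tRNA-modifying enzyme Cdkal1 at -0.67, Tcf4 at -0.60, Pde4b at -0.53 and the exocyst subunit Exoc4 at -0.53, with adjusted p from 6.77e-05 to 0.0237. Of these, Cdkal1 lost its call without DMSO replicate 2 or 3 or ICRF-193 replicate 1 (adjusted p from 0.0517 to 0.0563), and Pde4b without DMSO replicate 1 or 4 or ICRF-193 replicate 2 or 4 (adjusted p from 0.0547 to 0.0714). Only some bright probe sets passed in the fit of probe sets for Exoc4 (1 of 4), Tcf4 (3 of 5), Pde4b (2 of 3), Foxp1 (5 of 7) and Dlg2 (2 of 3). Csmd3, Rora and the lipid transfer protein Vps13b did not pass (adjusted p of 0.0582, 0.107 and 0.0927), and passed with the replicate block (adjusted p of 0.0145, 0.0146 and 0.0388). Ank3, ankyrin-G of the axon initial segment, likewise changed by -0.93 with an adjusted p of 0.171, or 0.0198 with the block, and 3 of its 6 bright probe sets fell. Astn2, an astrotactin of migrating neurons, Auts2, a nuclear protein of neurons, Magi1, a membrane-associated scaffold, Pard3 and Pde10a did not pass, at -1.18, -0.80, -0.27, -0.28 and -0.19, with limma adjusted p from 0.0854 to 0.456.

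A few giant genes stayed near 0 with ICRF-193. Macrod2, which removes ADP-ribose from proteins and spans 1998 kb, read 9.32, 9.37, 9.52 and 9.20 on the ICRF-193 arrays, against 9.22, 9.55, 9.19 and 9.33 on the DMSO arrays. Its change was 0.03 (95% interval -0.21 to 0.27), and its 3 bright probe sets changed by -0.02 to 0.03. Gphn, at 467 kb, read 11.72, 11.72, 11.44 and 11.70 on the ICRF-193 arrays, against 11.70, 11.68, 11.51 and 11.48 on the DMSO arrays. Its change was 0.05 (95% interval -0.16 to 0.27), with 3 probe sets between 0.05 and 0.25 and none passing. Fgf12, the close relative of Fgf14, had a change of -0.04 with a wider interval (-0.64 to 0.57). For Macrod2, Gphn and Fgf12 these intervals leave out a fall of the size of the median over the members, though that of Fgf12 reaches nearest to it.

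**Figure D2:**
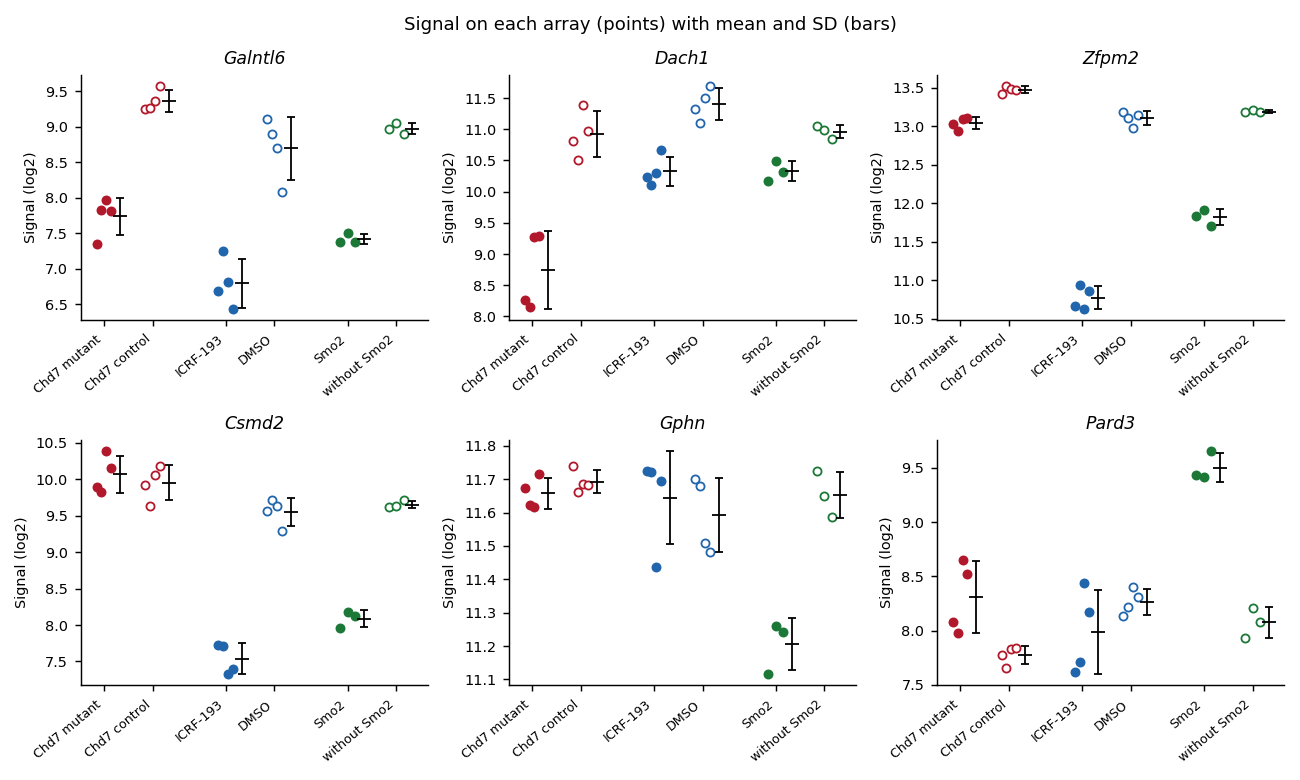
Signal (log2, y axis) of 6 giant genes on each array, in the groups named on the x axis. Points are arrays (filled for Chd7 mutant, ICRF-193 and Smo2), and the bars beside them give mean and SD. Galntl6 is lower in all 3 comparisons, Csmd2 is lower with ICRF-193 and Smo2 with a change of 0.12 in the mutant, Gphn has a change of 0.05 with ICRF-193, and Pard3 is higher with Smo2.

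With the sets as a block 27 members were lower with ICRF-193, the added ones being Rora, Astn2, Csmd3, Auts2 and Vps13b (limma adjusted p of 0.00741, 0.023, 0.0368, 0.0372 and 0.0457), while Ank3 did not pass (0.139) and Kirrel3 did (0.0376). Here too the share of all genes called in the blocked fit is not given. As no member called with ICRF-193 had overlapping groups, the same direction within replicates 1 and 2 and within replicates 3 and 4 was given in advance. With each set averaged to 1 sample 7 members were called, or 16 with the set as a block, against 60 and 304 of all 10772 genes. Granule cell markers averaged 11.98 to 12.19 on ICRF-193 and 12.30 to 12.53 on DMSO arrays, with 2 of 8 lower. Astrocyte markers averaged 8.22 to 8.71 on ICRF-193 and 8.21 to 8.93 on DMSO arrays, and the Y-linked genes 8.44 to 9.60 on ICRF-193 and 8.33 to 9.60 on DMSO arrays, with none of either list called. Of the Purkinje, oligodendrocyte, microglial, fibroblast and endothelial lists no marker was called either, and 1 of 5 GABAergic markers was lower. Their part in the members' changes was not tested.

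Of the 34 tested members, 11 were lower both in the Chd7 mutant and with ICRF-193, against 0.78% of all genes tested, and the same 11 were also lower with Smo2, against 0.733% of all genes. They were Ank2, Ctnna2 and Dlg2 of the scaffolds, Fstl5, Dpp6, Kctd8, Dach1, Zfpm2, Pde4d, Galntl6 and Nbea. The sizes of the 2 effects were compared in a fit of the 16 arrays, as the ICRF-193 change minus the mutant change. It passed as below 0 for 18 members and as above 0 for 0, against 3.87% and 2.62% of all genes tested. With the replicate block it was 21 and 1, for which the share of all genes is not given here. Zfpm2 differed by -1.89 ± 0.11 (limma adjusted p = 1.56e-07), Csmd2 by -2.13 (adjusted p = 2.93e-05) and Nbea by -1.30 (adjusted p = 3.25e-06), so that ICRF-193 had the deeper fall in each. For Fstl5 the difference was 0.00 (95% interval -0.56 to 0.57), for Kctd8 0.10 (95% interval -0.29 to 0.48) and for Galntl6 -0.27 (95% interval -0.91 to 0.36), none of which passed. Dach1 had the deeper fall in the mutant, by 1.10 (95% interval 0.30 to 1.89), which passed only with the replicate block (adjusted p of 0.101, or 0.00519 with the block). Auts2, Ank3 and Pard3 also passed only with the block, with ICRF-193 the lower.

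The third comparison sets cells cultured with Smo2, in which Top2a was high, against cells cultured without it. Most giant genes were lower with Smo2, and the spread within groups was small. Pde10a read 8.87, 9.00 and 8.72 on the Smo2 arrays, against 10.69, 10.88 and 10.54 on the arrays without Smo2. It fell by 1.84 ± 0.11, a 3.59-fold decrease (limma adjusted p = 2.85e-05), although it was called in neither of the other comparisons. Ank2 read 11.37, 11.47 and 11.30 on the Smo2 arrays, against 13.03, 12.96 and 13.01 on the arrays without Smo2, and fell by 1.62 ± 0.06 (limma adjusted p = 6.54e-06). Dpp6 read 9.76, 9.73 and 9.75 on the Smo2 arrays, against 11.35, 11.25 and 11.42 on the arrays without Smo2, and fell by 1.59 ± 0.06 (limma adjusted p = 6.22e-06). The arrays of each group lay close together.

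Csmd2 read 7.95, 8.18 and 8.12 on the Smo2 arrays, against 9.62, 9.63 and 9.71 on the arrays without Smo2, and fell by 1.57 ± 0.08 (limma adjusted p = 1.27e-05). Galntl6 read 7.38, 7.50 and 7.38 on the Smo2 arrays, against 8.97, 9.05 and 8.91 on the arrays without Smo2, and fell by 1.55 ± 0.07 (limma adjusted p = 8.54e-06). Pde4d read 9.34, 9.48 and 9.35 on the Smo2 arrays, against 10.86, 10.91 and 10.74 on the arrays without Smo2, and fell by 1.45 ± 0.07 (limma adjusted p = 1.36e-05). These 3 were also among the members lower with ICRF-193.

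A pair of members rose with Smo2. Pard3 read 9.44, 9.41 and 9.65 on the Smo2 arrays, against 7.93, 8.21 and 8.08 on the arrays without Smo2. It rose by 1.43 ± 0.10, a 2.69-fold increase (limma adjusted p = 5.14e-05), and its second bright probe set rose by 0.93. Cdkal1 read 8.56, 8.62 and 8.66 on the Smo2 arrays, against 8.06, 7.97 and 7.94 on the arrays without Smo2, and rose by 0.62 ± 0.06 (limma adjusted p = 0.000183), whereas it was lower with ICRF-193. Both gave groups that did not come near each other.

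Gphn, Fgf12 and Macrod2, near 0 with ICRF-193, passed as lower here. Gphn read 11.12, 11.26 and 11.24 on the Smo2 arrays, against 11.72, 11.65 and 11.59 on the arrays without Smo2. It fell by 0.45 ± 0.07 (limma adjusted p = 0.00127), although 1 of its 3 probe sets rose by 0.32. Fgf12 fell by 0.54 ± 0.14 (limma adjusted p = 0.0139), and Macrod2 by 0.18 ± 0.06 (limma adjusted p = 0.0386). In the fit of probe sets, however, that probe set of Macrod2 did not pass (limma adjusted p = 0.055), while another bright one rose by 0.22 (limma adjusted p = 0.0486) and the remaining one changed by 0.19. Macrod2 lost its call without any array but control replicate 3 (limma adjusted p from 0.0583 to 0.114), and Foxp1, at -0.21, lost it without any array but Smo2 replicate 2 (adjusted p from 0.0519 to 0.0963). Prkg1, Exoc4, Vps13b and Kirrel3 did not pass, with changes of 0.16, -0.18, -0.29 and -0.27. Another bright probe set of Exoc4, however, rose by 0.69 in the fit of probe sets (limma adjusted p = 0.00147). Its remaining bright ones each changed by 0.07 without passing. Of the other members lower with Smo2, Rora changed by -1.35, Magi1 by -1.33, Pde4b by -1.27, Erc2 by -1.20, Fgf14 by -1.15, Astn2 by -1.10, Auts2 by -0.79 and Ank3 by -0.52. The remaining 10 were Zfpm2 at -1.37, Dlg2 at -1.32, Csmd3 at -1.30, Nbea at -1.21, Fstl5 at -1.05, Kctd8 at -1.04, Ctnna2 at -0.96, Dmd at -0.72, Dach1 at -0.64 and Tcf4 at -0.43. In the fit of probe sets only some bright ones passed for Magi1 (2 of 5), Ank3 (3 of 6), Auts2 (3 of 4), Rora (4 of 5) and Dach1 (1 of 2). For Foxp1 it was 0 of 7. The bright probe sets of Magi1 changed by between -1.33 and -0.01.

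Markers of granule cells averaged 12.24 to 12.36 on Smo2 arrays and 12.68 to 12.71 on arrays without it, with 7 of 8 lower and 1 higher. Markers of astrocytes averaged 8.67 to 8.99 on Smo2 arrays and 9.39 to 9.49 on arrays without it (6 of 8 lower), of GABAergic interneurons 8.20 to 8.30 on Smo2 arrays and 9.12 to 9.23 on arrays without it (4 of 5 lower), and of microglia 5.68 to 6.19 on Smo2 arrays and 6.59 to 7.10 on arrays without it (all 5 tested lower). Of the other lists, 2 of 3 Purkinje cell markers tested were lower and 1 higher, 2 of 6 oligodendrocyte markers lower and 3 higher, and 1 of 6 fibroblast and pericyte markers higher. The part of these cells in the members' changes was not tested.

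The members were also counted by role. Of 9 scaffolds tested, 3 were lower in the Chd7 mutant, 5 with ICRF-193 and 8 with Smo2, where 1 more was higher, and over the 9 with a probe set the median changes were -0.31, -1.05 and -0.96. Of 4 channel and receptor partners tested, 2, 3 and 4 were lower in the same order. Of 6 transcription factors and cofactors, 2 were lower and 1 higher in the mutant, 4 lower with ICRF-193 and 6 lower with Smo2. Of 5 surface and secreted proteins tested, 2, 3 and 4 were lower, and of 4 genes of cyclic nucleotide signalling 1, 3 and 3. Of 3 other enzymes tested, 1 was lower in the mutant, 2 were lower with ICRF-193, and 2 were lower and 1 higher with Smo2, and of 3 trafficking genes 1 was lower in the mutant, 2 with ICRF-193 and 1 with Smo2. Of all genes tested, 3.82% were lower in the mutant, 3.46% with ICRF-193 and 39% with Smo2, and 5.07%, 3.14% and 29.7% were higher. The 1 of 3 trafficking genes lower with Smo2 is thus no more than the share over all genes. The groups are small, and differences between them were not tested.

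Genes related to the members by family, mostly shorter, were also examined. Of 62 listed relatives 47 were tested, with a median length of 108 kb. In the Chd7 mutant 2 of them were lower and 4 higher, with ICRF-193 4 were lower and 1 higher, and with Smo2 21 were lower and 14 higher. Of all genes tested, 3.82% were lower and 5.07% higher in the mutant, 3.46% and 3.14% with ICRF-193, and 39% and 29.7% with Smo2. Picked after their values were seen, Fgf13, a 523 kb relative of Fgf12 and Fgf14, fell by 0.84 ± 0.08 in the mutant and by 0.96 ± 0.10 with ICRF-193, while Ctnna1 (136 kb) and Dlg1 (210 kb), the relatives of Ctnna2 and Dlg2, rose in the mutant by 0.55 ± 0.08 and 0.41 ± 0.07 (limma adjusted p of 0.00503 and 0.0135).

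Among the genes that are not members, the share that was lower was greatest in the longest classes. With ICRF-193 it was 1.45% of 7581 genes under 50 kb, 1% of 1597 genes of 50 to 100 kb, 5.21% of 959 genes of 100 to 200 kb, 18.9% of 397 genes of 200 to 400 kb, 50% of 144 genes of 400 to 800 kb and 69.2% of 39 genes of at least 800 kb. The members stood near the other genes of their class, with 11 of 19 lower (57.9%) at 400 to 800 kb and 8 of 12 (66.7%) at 800 kb or more, while all 3 members of 200 to 400 kb were lower. Median changes were -0.67 for the members and -0.54 for the other genes at 400 to 800 kb, and -1.23 for the members and -1.34 for the others above. In the Chd7 mutant 4 of 19 members (21.1%) and 20.8% of the other genes were lower at 400 to 800 kb, and 6 of 12 members (50%) and 25.6% of the others at 800 kb or more. With Smo2 the shares were 73.7% of members and 72.9% of others at 400 to 800 kb, and 91.7% of members and 76.9% of others above.

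**Figure D3:**
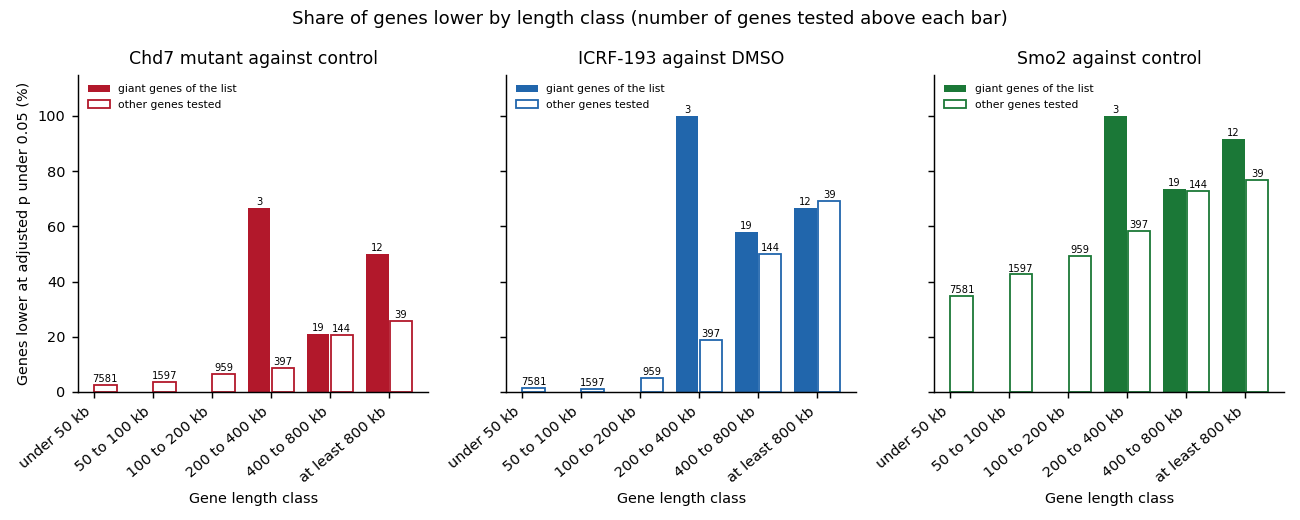
Percentage of genes lower at an adjusted p under 0.05 (y axis) by gene length class (x axis) in the 3 comparisons, for the giant genes of the list (filled bars) and the other genes tested (open bars), with the number of genes above each bar. With ICRF-193 the open bars climb to 69.2% at 800 kb or more, beside 66.7% of 12 listed genes, and the class of 200 to 400 kb holds 3 listed genes.

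Within the members themselves, change and length were weakly related. Across the 34 tested members, Spearman's rho between change and the logarithm of length was -0.03 in the mutant, -0.17 with ICRF-193 and -0.07 with Smo2 (Pearson's r 0.09, -0.11 and -0.06). Across 580 other genes of at least 200 kb it was -0.16, -0.42 and -0.27 (Pearson's r -0.15, -0.48 and -0.23). These are descriptions across genes that share the same arrays, and genes are not independent replicates. The 3 longest tested members had quite different values with ICRF-193, at -1.53 for Dmd (2390 kb), 0.03 for Macrod2 (1998 kb) and -1.15 for Dlg2 (1973 kb), and Zfpm2, the deepest fall, spans 450 kb.

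**Figure D4:**
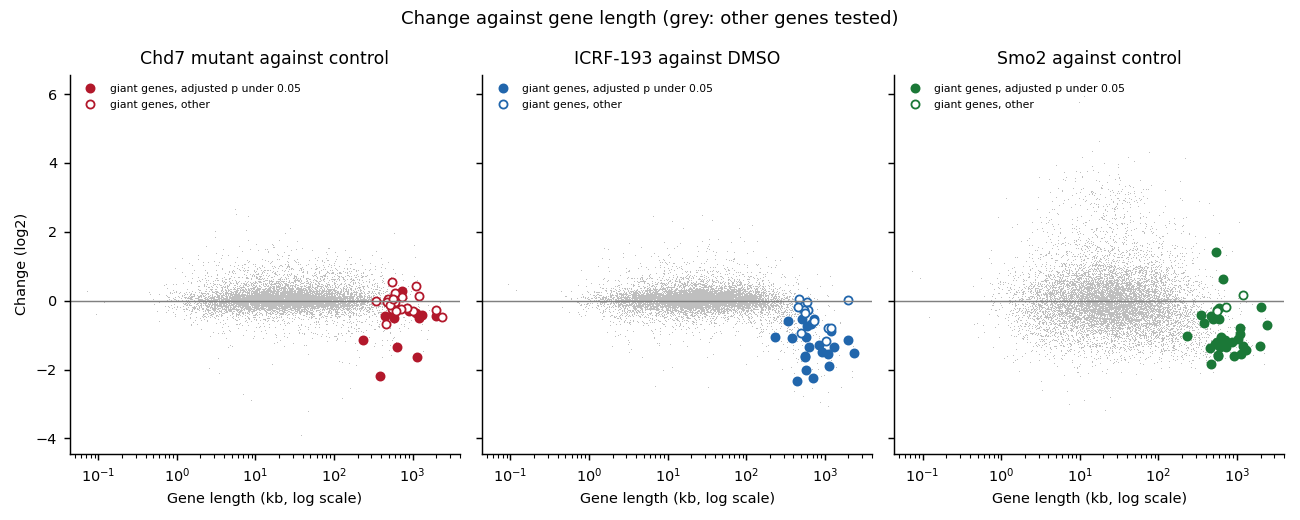
Change (log2, y axis) against gene length in kb (x axis, log scale) in the 3 comparisons. Large circles are the 34 tested giant genes, filled at an adjusted p under 0.05, and grey dots the other genes tested. In the ICRF-193 panel the cloud bends below 0 at the long end, and the listed genes range from -2.33 for Zfpm2 to 0.05 for Gphn.

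Signal was related to the share of calls in longer genes. All genes tested were split by mean signal into 3 groups of equal size, at 8.70 and 10.34 (log2). With ICRF-193, 6 of 10 members in the dimmest group, 5 of 9 in the middle and 11 of 15 in the brightest were lower, beside 13%, 29.1% and 50.5% of other genes of at least 200 kb. In the mutant the counts were 2 of 10, 2 of 9 and 8 of 15, beside 9.3%, 12.3% and 17.7% of those genes, and with Smo2 6 of 10, 8 of 9 and 14 of 15, beside 44.2%, 59.8% and 88.7%. Across the members, rho between change and signal was -0.06 in the mutant, -0.01 with ICRF-193 and -0.22 with Smo2.

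The dim members had readings near the floor of 16 units, which is 4 on the log2 scale, and are given as values. Fhit, a hydrolase of diadenosine polyphosphates at a known human fragile site, read 4.87, 4.00, 4.00 and 4.00 on the ICRF-193 arrays, against 6.41, 6.89, 6.66 and 6.65 on the DMSO arrays, where 3 of the ICRF-193 arrays were at the floor. Wwox, an oxidoreductase with WW domains, read 4.92, 5.30, 5.77 and 4.39 on the ICRF-193 arrays, against 6.88, 6.94, 6.20 and 6.90 on the DMSO arrays. Lrp1b, a giant receptor of the LDL receptor family, read 5.22, 5.83, 5.74 and 5.51 on the ICRF-193 arrays, against 6.41, 6.32, 6.72 and 6.11 on the DMSO arrays. Each was lower on every ICRF-193 array, and in a fit with no filter on signal Fhit and Wwox passed (limma adjusted p of 0.00214 and 0.0491) and Lrp1b did not (0.065). For Wwox the fall rests on 1 probe set, as its other 3, also dim, changed by 0.47, -0.07 and 0.09.

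Dpp10, a relative of Dpp6, read 7.09, 7.53, 6.35 and 6.64 on the mutant arrays, against 5.85, 6.20, 5.12 and 5.84 on the control arrays, higher on every mutant array without passing in the fit with no filter (limma adjusted p = 0.108). Csmd1, another CUB and sushi protein, read 4.24, 4.42, 5.60 and 6.06 on the mutant arrays, against 5.87, 5.68, 5.98 and 6.06 on the control arrays, with overlapping groups. Wwox read 6.78, 6.86 and 6.64 on the Smo2 arrays, against 6.41, 5.76 and 6.02 on the arrays without Smo2, and passed as higher with no filter (limma adjusted p = 0.0385). Fstl4 and Agbl4, a tubulin deglutamylase, reached the floor in all 3 comparisons and gave no change that could be read.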

How the data were processed

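Total RNA of cultured mouse granule cells was hybridised to 22 Affymetrix arrays of 45101 probe sets. The intensities were deposited by the authors on a linear scale, each array with a mean of 500 after trimming 2% from each end. The software and summarisation were not given in the sources used here. Such scaling sets every array to a common mean, so changes are relative within an array.

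From these intensities, values under 16 were set to 16 (4 on the log2 scale), values were put on the log2 scale, and the 22 arrays were made alike by quantile normalization. The platform annotation gave 1 gene symbol to 34958 probe sets, several to 932 and none to 9211, and only the first kind named genes. The probe set with the highest mean stood for each gene, and a gene was tested where its mean signal reached 6.44, the middle value of the probe set means. Each comparison was fitted on its own arrays in R 4.3.3 (limma 3.58.1), and two-sided p-values were adjusted after Benjamini and Hochberg over all 10772 genes. Gene lengths, names and promoters came from RefSeq (GRCm38.p6), and 21 genes tested had no length. No 2 of the 231 array pairs were identical. The fits were tested on simulated data. The number of arrays limits the precision.

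Replicate numbers were checked for pairing. In the Chd7 comparison deviations from the group means correlated at 0.392 to 0.42 between arrays of the same number and at 0.383 to 0.441 between arrays of the same set (replicates 1 and 2, or 3 and 4) with another number, and in the ICRF-193 comparison at 0.28 to 0.414 and 0.299 to 0.347. The numbers were read as possible pairing in both, but correlations were about as high within sets across numbers. The main fits, which gave the changes and calls reported here, had no block for number or set. Values with the number and with the set as a block are both given beside them where they change a call.

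The 43 members and the lists of relatives and markers were chosen with earlier results of these data known. Array values are given, in each comparison, for members called with groups that did not overlap, namely the 6 largest falls and rises and those called in both the Chd7 and ICRF-193 comparisons. Other values were chosen after they were seen. Alternatives were the deposited scale, median centring, a floor of 64, other filters, the mean of all probe sets, the methods' t-test, a threshold of 0.01, 1 fit of all 6 groups, moderated variance with a trend, blocks and leaving out each array, with set means as samples added after seeing the data.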

Additional observations from a re-analysis of the deposited data

Results flagged for a closer look

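The change with ICRF-193 differed from that in the Chd7 mutant for 18 giant genes, by a limma test of the difference over 16 arrays, and in each the ICRF-193 change was the lower. Among scaffolds Ctnna2 by -1.19, Erc2 by -1.07, Dmd by -1.06, Dlg2 by -0.71 and Ank2 by -0.55 differed. Among surface proteins and partners of channels Csmd2 by -2.13, Fgf14 by -2.01 and Dpp6 by -1.20 differed. Among transcription factors and cofactors Zfpm2 by -1.89, Rora by -0.89, Foxp1 by -0.69 and Tcf4 by -0.59 differed. Among enzymes and signalling proteins Prkg1 by -1.02, Pde4d by -0.93 and Cdkal1 by -0.80 differed, and among trafficking proteins Nbea by -1.30, Exoc4 by -0.65 and Vps13b by -0.41 differed. Their limma adjusted p ran from 1.56e-07 for Zfpm2 to 0.0457 for Vps13b. Of these, Rora passed as higher in the mutant (0.29), and its ICRF-193 change of -0.60 did not pass. Of 54 groups of 4 arrays checked for a single array far from the others, 0 had one, where chance gives about 1 in 20.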

How the results depend on the processing

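No member called in any comparison changed direction under any alternative run in which it was tested. Members that missed the signal filter of a run, as some did with the mean of all probe sets, are not counted there. Kirrel3, whose dim probe sets went the other way with ICRF-193, was among these. In the Chd7 mutant, the 12 members lower were 5 with the methods' t-test at an unadjusted p with a fold of 1.5, 7 at a threshold of 0.01, 8 with the mean of all probe sets, 14 with all 6 groups in 1 fit, 17 with the 2 sets as a block, 0 when each set was averaged to 1 sample and 0 when the sets were blocked in addition, the last pair chosen after seeing the data. The 1 member higher was 0 with median centring, no filter, the mean of all probe sets, the methods' t-test with a fold, the threshold of 0.01 and set means with or without the set as a block, and 2 with the replicate block and with the set as a block. Leaving out 1 array gave 8 to 10 lower and 0 to 1 higher. With ICRF-193 the 22 lower were 7 with set means and 20 to 22 leaving out 1 array, and the members' median of -0.88 was -0.73 with a floor of 64, -0.62 with the mean of all probe sets and -0.9996 to -0.82 leaving out 1 array. With Smo2 the replicate block gave 28 lower and 2 higher, leaving out 1 array gave 26 to 28 lower, the mean of all probe sets gave 1 higher, and the members' median of -1.04 was -1.08 on the deposited scale, -0.90 with median centring, -0.72 with a floor of 64, -0.61 with the mean of all probe sets and -1.05 to -0.93 leaving out 1 array. The median of other genes of at least 400 kb was -0.19 in the mutant and -0.81 with Smo2 under median centring, and -0.99 with Smo2 on the deposited scale. The difference of effects gave 1 member higher with the replicate block. The cause of these shifts was not tested. For most of these runs the share of all genes called is not given here, so the counts describe the processing and not the members. Calls that lasted through every left-out array were 7 of 13 in the mutant, 19 of 22 with ICRF-193 and 28 of 30 with Smo2. In the Smo2 comparison arrays of the same number correlated at -0.00665 to 0.0348, so the numbers there are shared names only, and the replicate block took the call from Macrod2 (limma adjusted p = 0.0508) and gave Kirrel3 one (0.0349). Signal near the floor limits what can be seen of 7 members.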
